A study of Rattus norvegicus with 9 samples.

Results

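The genes described here are Nfe2l2, which encodes the transcription factor Nrf2, Keap1, which encodes the protein that holds Nrf2 in check, and 8 genes known as targets of Nrf2: Gclc, Gclm, Gsr, Slc7a11, Txnrd1, Srxn1, Nqo1 and Hmox1. They were taken by symbol, all 10 had a row, and they stand among 23026 genes in the tables. All 10 also passed the filter on low counts, which left 16874 genes to test.

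RNA was sequenced from bone of female Sprague-Dawley rats bought at 8 weeks of age and kept 1 week before surgery. The Sham group (n = 3) had the ovaries exposed but kept, the OVX group (n = 3) lost both ovaries, and the OVX-AS-IV-High group (n = 3), called the AS-IV group from here, lost both ovaries and was given astragaloside IV, a saponin of Astragalus root, at 80 mg/kg. Gavage began 6 weeks after surgery and was given daily for 8 weeks. Sham and OVX received the vehicle, carboxymethylcellulose sodium (CMC-Na). By the study's methods astragaloside IV was itself prepared in 1% CMC-Na. The labels give the CMC-Na of the OVX libraries as 1%, but that of Sham replicates 1, 2 and 3 as 1%, 2% and 3%, while the study's methods give a 1% vehicle for both groups. The Sham libraries were treated as 1 group. Ovariectomy removes the main source of oestrogen and is used as a model of bone loss after the menopause. Each library is a different animal, and the total counts per library ran from 34874880 (Sham replicate 2) to 37298250 (AS-IV replicate 1).

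Under resting conditions Keap1 binds Nrf2 in the cytoplasm and presents it to a Cul3 ubiquitin ligase, so that Nrf2 is degraded. Oxidants and electrophiles modify cysteines of Keap1, Nrf2 then accumulates, enters the nucleus, pairs with a small Maf protein and binds the antioxidant response element in front of its target genes. The targets supply glutathione (Gclc, Gclm, Gsr, Slc7a11), thioredoxin and sulfiredoxin activity (Txnrd1, Srxn1), quinone reduction (Nqo1) and the breakdown of haem (Hmox1). In bone, oxidants promote the formation of osteoclasts, and Nrf2 is known to restrain it. Nrf2 is regulated largely through its protein, so the level of Nfe2l2 mRNA is not a measure of its activity.

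Stretches of 3 promoters are shown because they are the ones among the 10 genes that carry the letters of the element, whether or not the gene passed a test. RefSeq windows (build GRCr8) that run from 250 bases before to 50 bases after a gene's start were searched on both strands for TGACNNNGC, the core letters of the antioxidant response element. Windows were found for 8 of the 10 genes, with none listed for Hmox1 and Gsr. Matches lay in the windows of 3 of the 8, namely Gclm, Txnrd1 and Nfe2l2. Capitals mark the match, lower case the bases around it, and each line reads 5′ to 3′ on the strand of its gene:
Gclm, chr2:213031938-213031996, + strand: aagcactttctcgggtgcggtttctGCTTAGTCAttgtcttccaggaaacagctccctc
Txnrd1, chr7:22755949-22756007, - strand: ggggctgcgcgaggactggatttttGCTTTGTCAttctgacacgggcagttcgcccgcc
Nfe2l2, chr3:81028950-81028971, - strand: gactagccatTGACGCCGCctc
In Gclm the match begins 172 bases before the start and is read on the opposite strand as TGACTAAGC. In Txnrd1 it begins 78 bases before the start in 1 of the gene's 2 windows and is read on the opposite strand as TGACAAAGC. In Nfe2l2 it begins at base 39 after the start, inside the transcribed part. The windows of Keap1, Gclc, Slc7a11, Srxn1 and Nqo1 held no match, which says only that these letters are not in those 300 bases. Over all 27457 genes with a window, 13.1% held a match. With the shorter TGANNNNGC, 7 of the 8 genes and 42.5% of all genes did.

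Levels can be compared between genes only when scaled for length, so FPKM, which divides by gene length and library size, was used for the order. Hmox1 had the highest FPKM, with a median of 70.9 over the 9 libraries (range 63.6 to 141). It was followed by Gclm (54.8, 43.1 to 81.6), Gsr (53.3, 41.6 to 63.7) and Gclc (33.4, 22.6 to 53.9). Keap1 (16.9, 14.4 to 20.2), Txnrd1 (16.3, 12.5 to 17.3) and Nfe2l2 (13.2, 11.9 to 19.6) lay close together. Nqo1 (8.96, 5.44 to 10.7) and Srxn1 (7.30, 5.08 to 9.99) were lower, and Slc7a11, the cystine carrier, was near the floor of the data at 0.109 (0.0669 to 0.219). Several neighbours in this order did not separate: Gclm was above Gsr in 3 of 9 libraries, Keap1 above Txnrd1 in 6 of 9, and Txnrd1 above Nfe2l2 in 6 of 9. Hmox1 was above Gclm, Gsr above Gclc, and Nqo1 above Srxn1 in 8 of 9. The exception for Hmox1 was AS-IV replicate 3, with 66.3 FPKM against 71.2 for Gclm. Gclc was above Keap1, Nfe2l2 above Nqo1, and Srxn1 above Slc7a11 in 9 of 9. In the Sham group the mean FPKM of Hmox1 (118 ± 21.6, SD, n = 3) stood at the 97.4 percentile of the 21667 genes with FPKM above 0, and that of Slc7a11 (0.114 ± 0.0223) at the 24.5 percentile. Slc7a11 rested on 29 to 96 counts per library, which limits what can be said of it.

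**Figure D1:**
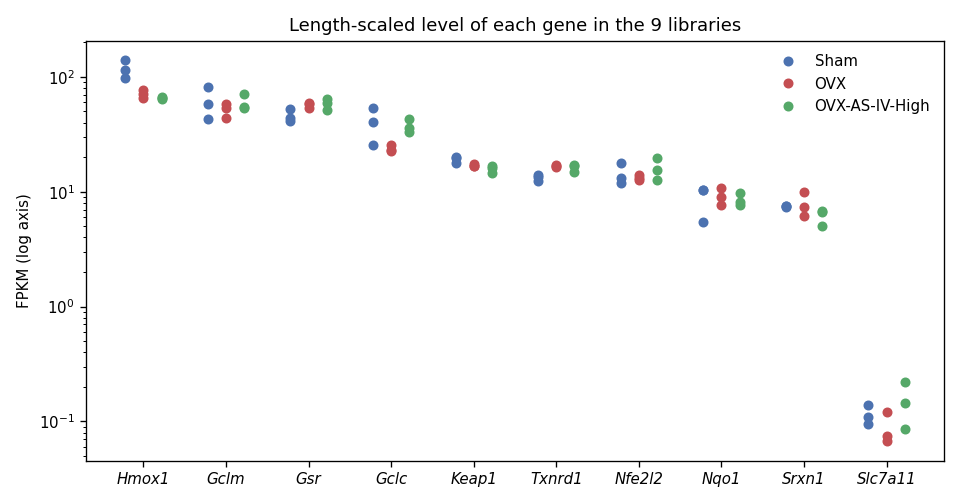
FPKM (log axis) of each of the 10 genes, 1 point per library, coloured by group (3 libraries each), in order of the median over 9 libraries. Hmox1 lies highest with a median of 70.9 FPKM and Slc7a11 lowest with 0.109, while Keap1, Txnrd1 and Nfe2l2 overlap.

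Comparisons between groups used TMM-scaled CPM, which corrects for depth and composition but not for gene length, and edgeR's quasi-likelihood test on all 9 libraries. A gene was called changed by either of the rules stated for the study, in its methods and in its results. Both ask for an unadjusted p under 0.05. The former adds an absolute log2 fold change (log2FC) over 0.58, and was taken up here only after the data were seen. The latter adds one over 1, and is called the 2-fold rule here. OVX vs Sham sets ovariectomised against sham-operated rats, and AS-IV vs OVX treated against untreated ovariectomised rats. AS-IV vs Sham sets treated ovariectomised against sham-operated rats. The labelled CMC-Na and the tissue content of the libraries differed as well, and their part in these contrasts was not tested. These comparisons share libraries (each group stands in 2 of the 3), so their values are not independent of each other.

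Under the 2-fold rule, 0 of the 10 genes were called in any of the 3 comparisons. That rule called 3.11% of all genes tested in OVX vs Sham, 0.83% in AS-IV vs OVX and 3.15% in AS-IV vs Sham. These numbers of genes (525, 140 and 531) depended on single libraries, with 1064 in OVX vs Sham without Sham replicate 3, up to 219 in AS-IV vs OVX (without AS-IV replicate 1), and 862 and 940 in AS-IV vs Sham without Sham replicate 3 and without AS-IV replicate 1. With the log2FC over 0.58, 2 of the 10 were called in OVX vs Sham (Gclc and Hmox1, with 6.96% of all genes), 1 in AS-IV vs OVX (Gclc, 2.19%) and 1 in AS-IV vs Sham (Hmox1, 6.92%). Without 1 library these shares rose to 12.3% in OVX vs Sham (without Sham replicate 3), 3.49% in AS-IV vs OVX (without AS-IV replicate 3) and 10.99% in AS-IV vs Sham (without Sham replicate 3). At this rule Gclc was lost in OVX vs Sham without Sham replicate 3 (log2FC -0.51) and in AS-IV vs OVX without AS-IV replicate 3 (0.58, unadjusted threshold missed), while Slc7a11 was called in AS-IV vs OVX without OVX replicate 3 (1.12) and without AS-IV replicate 3 (1.09). At an unadjusted p under 0.05 alone, 4 of the 10 were called in OVX vs Sham (16.4% of all genes), 1 in AS-IV vs OVX (6.45%) and 4 in AS-IV vs Sham (17.6%). The calls of OVX vs Sham were Hmox1 and Gclc, which were lower, and Gsr and Txnrd1, which were higher. Gclc was the call of AS-IV vs OVX, and was higher. In AS-IV vs Sham they were Hmox1 and Keap1, lower, and Gsr and Txnrd1, higher. In OVX vs Sham 4 of the 10 had a log2FC above 0 and 6 below, where 49.2% of all genes had one above 0. The median of the 10 was -0.16, against -0.01 over all genes.

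After Benjamini-Hochberg adjustment over all genes, edgeR called 0 genes of any kind in each comparison (0% of the genes tested), against 2775, 1089 and 2978 genes at an unadjusted p under 0.05. The smallest adjusted p over all genes was 0.118 in OVX vs Sham, where it was shared by Hmox1, 0.652 in AS-IV vs OVX and 0.0639 in AS-IV vs Sham. DESeq2 called 811, 29 and 988 genes at an adjusted p under 0.05, among them Hmox1, Gclc and Txnrd1 in OVX vs Sham, 0 of the 10 in AS-IV vs OVX, and Hmox1 and Txnrd1 in AS-IV vs Sham. limma on log2(FPKM + 1) called 0 genes in each. Other fits in edgeR did call genes: with the replicate number as a block over all 9 libraries, 21 in OVX vs Sham, 0 in AS-IV vs OVX and 58 in AS-IV vs Sham, with Hmox1 among the 58. The 0 also depended on single libraries: without AS-IV replicate 3, edgeR called 29 genes in AS-IV vs OVX and 141 in AS-IV vs Sham, with 0 of the 10 genes among them, and without Sham replicate 3 it called 21 in OVX vs Sham and 5 in AS-IV vs Sham, again with 0 of the 10. Calls named below are at the unadjusted threshold unless said otherwise.

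**Figure D2:**
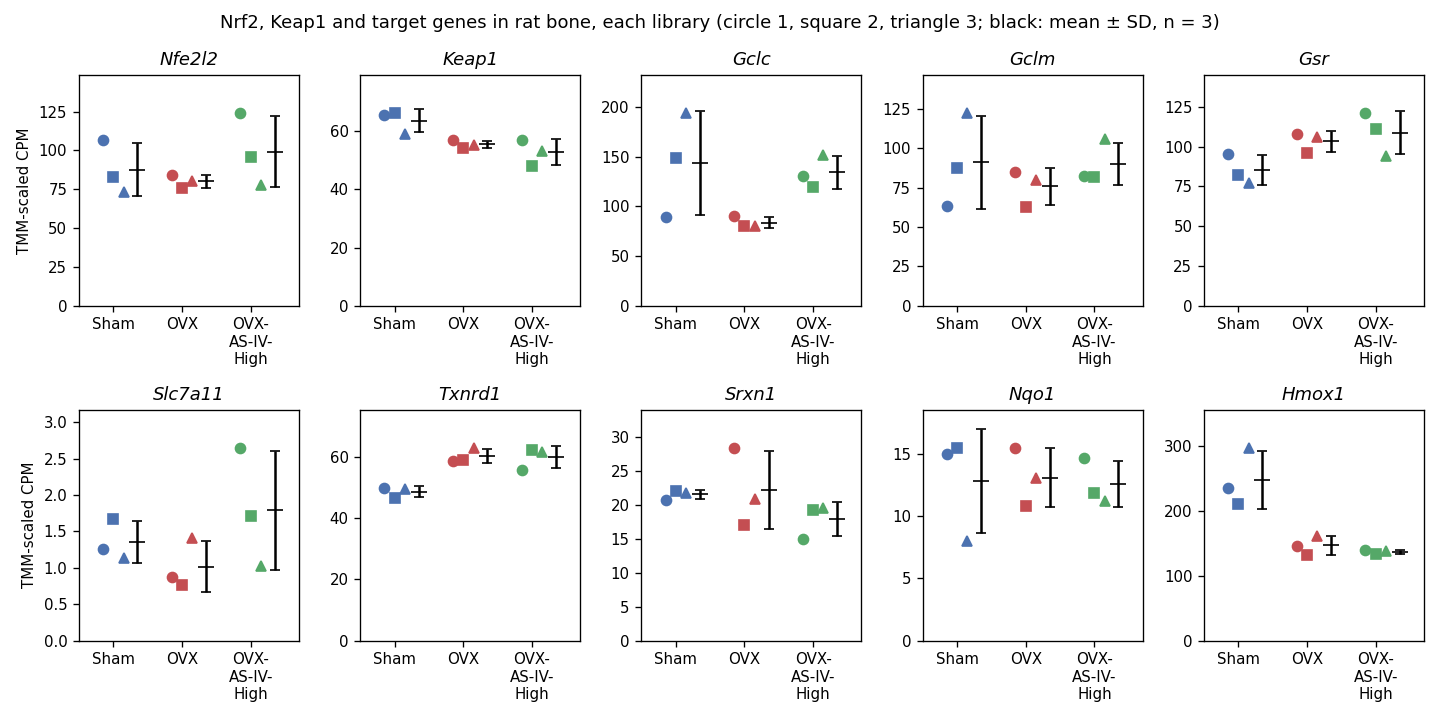
TMM-scaled CPM of each gene in each library (circle, square and triangle for replicates 1, 2 and 3), with the group mean ± SD (n = 3) in black. Hmox1 in Sham lies between 210.2 and 297 CPM, above every OVX and AS-IV library, and Gclc in OVX lies between 80.3 and 90.2 CPM with little spread.

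Nfe2l2 did not pass in any comparison, and varied strongly within Sham and AS-IV. It stood at 107, 82.9 and 73.3 CPM in Sham rats, 84.2, 75.9 and 80.2 in OVX rats, and 124, 95.9 and 78.0 in AS-IV rats. Replicate 1 was the highest of its group in all 3 groups, and the groups overlapped in every comparison. The log2FC was -0.13 ± 0.18 (SE) in OVX vs Sham and 0.31 ± 0.18 in AS-IV vs OVX, with adjusted p = 0.729 and adjusted p = 0.875. Its 95% interval in AS-IV vs OVX ran from -0.10 to 0.72. With the replicate number as a block and only the OVX and AS-IV libraries this log2FC was 0.29 and did not pass, while with the block over all 9 libraries it was 0.28 and passed the unadjusted threshold. Without AS-IV replicate 3 it was 0.46 and passed too, without AS-IV replicate 1 it was 0.12, and with the macrophage covariate 0.16. In the other comparisons it ran from -0.24 to 0.03 (OVX vs Sham) and from -0.01 to 0.35 (AS-IV vs Sham) without 1 library.

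Keap1 was lower in both ovariectomised groups than in Sham, by a small amount and with little spread. It stood at 65.7, 66.2 and 59.0 CPM in Sham rats, 56.9, 54.4 and 55.2 in OVX rats, and 57.0, 48.1 and 53.3 in AS-IV rats. Every OVX library and every AS-IV library lay below every Sham library. The log2FC was -0.20 ± 0.09 in OVX vs Sham, which did not pass (adjusted p = 0.321), and -0.27 ± 0.09 in AS-IV vs Sham, which passed unadjusted (adjusted p = 0.190). That call was lost without Sham replicate 2 (-0.23), without AS-IV replicate 2 (-0.21), and with only the 2 groups compared in the fit (-0.25), while in OVX vs Sham a call appeared without Sham replicate 3 (-0.25). OVX and AS-IV overlapped, with a log2FC of -0.07 ± 0.09 that ran from -0.13 to -0.01 without 1 library.

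Among Gclc, Gclm, Gsr and Slc7a11, Gclc had the smallest p in OVX vs Sham and in AS-IV vs OVX, but not in AS-IV vs Sham. It encodes the catalytic subunit of glutamate-cysteine ligase, the rate-limiting enzyme of glutathione synthesis. Gclc stood at 89.2, 149 and 194 CPM in Sham rats, 90.2, 80.6 and 80.3 in OVX rats, and 131, 119.8 and 152 in AS-IV rats. The OVX libraries were close together, the Sham libraries spread more than 2-fold, and Sham replicate 1 lay within the OVX range. Gclc was 1.72-fold lower in OVX than in Sham (log2FC -0.78 ± 0.23, adjusted p = 0.180) and 1.60-fold higher in AS-IV than in OVX (0.68 ± 0.23, adjusted p = 0.664). AS-IV and Sham overlapped, with a log2FC of -0.10 ± 0.23 and a 95% interval from -0.63 to 0.42. Gclc was the 1 gene of the 10 whose AS-IV and OVX libraries did not overlap, with every AS-IV library above every OVX library. Of all genes, 12.7% did not overlap in this comparison.

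The size of these differences depended on individual libraries. Without Sham replicate 1 the log2FC of Gclc in OVX vs Sham was -1.04, which passed the 2-fold rule, and in AS-IV vs Sham it was -0.35 and passed the unadjusted threshold. Without Sham replicate 3 these values were -0.51 and 0.17. In AS-IV vs OVX the call was lost without AS-IV replicate 3, at a log2FC of 0.58. An alternative fit held only the OVX and AS-IV libraries and paired them by number, with the replicate number as a block. In that fit the log2FC was 0.68 and kept its call (adjusted p = 0.608 in edgeR).

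Gclm, the modifier subunit of the same ligase, had the same order of group means as Gclc but did not pass. It stood at 63.1, 87.8 and 122 CPM in Sham rats, 85.1, 62.9 and 79.7 in OVX rats, and 82.4, 82.1 and 106 in AS-IV rats. Sham replicate 1 was the lowest and Sham replicate 3 the highest library of their group for Gclm as for Gclc. The log2FC was -0.26 ± 0.23, 0.25 ± 0.23 and -0.02 ± 0.23 in the 3 comparisons, with unadjusted p from 0.273 to 0.946. Without Sham replicate 1 that in OVX vs Sham was -0.48 and passed the unadjusted threshold, and without Sham replicate 3 it was 0.01. Without 1 library those in AS-IV vs OVX and AS-IV vs Sham ran from 0.12 to 0.34 and from -0.22 to 0.26.

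Gsr, which encodes glutathione reductase and returns oxidised glutathione to its reduced form, was higher in both ovariectomised groups. It stood at 95.7, 82.2 and 77.5 CPM in Sham rats, 108, 95.9 and 106 in OVX rats, and 121, 111 and 94.2 in AS-IV rats. All OVX libraries lay above all Sham libraries, narrowly, at 95.9 against 95.7, and AS-IV replicate 3 lay within the Sham range. The log2FC was 0.28 ± 0.12 in OVX vs Sham (adjusted p = 0.287) and 0.35 ± 0.12 in AS-IV vs Sham (adjusted p = 0.189). The call in OVX vs Sham was lost in 5 of 9 fits that left out 1 library: without Sham replicate 2 (0.26), Sham replicate 3 (0.22), OVX replicate 1 (0.25), OVX replicate 3 (0.26) or AS-IV replicate 2 (0.28). The call in AS-IV vs Sham was lost without Sham replicate 3 (0.29) and without AS-IV replicate 1 (0.27).

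Slc7a11, which brings in the cystine from which glutathione is made, had from 0.765 to 2.64 CPM. Its highest library was AS-IV replicate 1 with 96 counts and its lowest OVX replicate 2 with 29. The log2FC in AS-IV vs OVX was the largest of the 10 genes at 0.81 ± 0.41, but its 95% interval ran from -0.11 to 1.74 (adjusted p = 0.827). It passed the 2-fold rule without OVX replicate 3 (1.12) and without AS-IV replicate 3 (1.09), and was 0.42 without AS-IV replicate 1. Against Sham the log2FC was -0.41 ± 0.41 for OVX (-0.72 to -0.23 without 1 library) and 0.40 ± 0.41 for AS-IV (0.01 to 0.68).

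Txnrd1 showed the steadiest difference from Sham. It encodes cytosolic thioredoxin reductase, which keeps thioredoxin reduced. Txnrd1 stood at 49.98, 46.7 and 49.5 CPM in Sham rats, 58.7, 59.2 and 63.0 in OVX rats, and 55.9, 62.4 and 61.7 in AS-IV rats. Every library of both ovariectomised groups lay above every Sham library. The log2FC was 0.31 ± 0.08 in OVX vs Sham (1.24-fold, adjusted p = 0.159) and 0.30 ± 0.08 in AS-IV vs Sham (1.23-fold, adjusted p = 0.135). AS-IV vs OVX gave -0.01 ± 0.08, with a 95% interval from -0.19 to 0.18. Both calls against Sham were kept in 9 of 9 fits that left out 1 library, with log2FC from 0.28 to 0.33 and from 0.27 to 0.35. The within-group SD of its log2 CPM was 0.0664, against a median of 0.235 over all genes tested.

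Srxn1, which encodes the sulfiredoxin that repairs overoxidised peroxiredoxins, did not pass in any comparison. It stood at 20.8, 22.1 and 21.8 CPM in Sham rats, 28.4, 17.1 and 21.0 in OVX rats, and 15.0, 19.3 and 19.5 in AS-IV rats. The AS-IV libraries all lay below the Sham libraries, by a log2FC of -0.27 ± 0.18 (adjusted p = 0.475). In AS-IV vs OVX the log2FC was -0.31 ± 0.18, and it was -0.46, past the unadjusted threshold, without OVX replicate 2, the lowest library of its group. Without OVX replicate 1, the highest, it was -0.09. The log2FC in AS-IV vs Sham was -0.15 without AS-IV replicate 1, and that in OVX vs Sham ran from -0.18 to 0.20.

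Nqo1, the quinone reductase often read as a marker of Nrf2 activity, showed no difference that the data could resolve. It stood at 15.0, 15.4 and 7.97 CPM in Sham rats, 15.5, 10.8 and 13.0 in OVX rats, and 14.6, 11.8 and 11.2 in AS-IV rats. Sham replicate 3 was the lowest of the 9 libraries, at 283 counts. The log2FC lay between -0.06 and 0.03 in the 3 comparisons, each with an SE of 0.25, and the 95% interval in AS-IV vs OVX ran from -0.63 to 0.52. Without Sham replicate 3 the log2FC was -0.22 in OVX vs Sham and -0.27 in AS-IV vs Sham.

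Hmox1 had the smallest p of the 10 genes in both comparisons with Sham. It encodes heme oxygenase 1, which opens the haem ring and releases iron, carbon monoxide and biliverdin, and in bone marrow it is known from macrophages that take up red cells. Hmox1 stood at 235, 210.2 and 297 CPM in Sham rats, 146, 132 and 162 in OVX rats, and 139, 134 and 138 in AS-IV rats. The highest library outside Sham, OVX replicate 3, lay below the lowest Sham library. Hmox1 was 1.68-fold lower in OVX than in Sham (log2FC -0.75 ± 0.13, adjusted p = 0.118) and 1.80-fold lower in AS-IV than in Sham (-0.85 ± 0.13, adjusted p = 0.0738). By unadjusted p it ranked 35 of 16874 genes in the former and 25 in the latter. AS-IV and OVX overlapped, with a log2FC of -0.10 ± 0.13 and a 95% interval from -0.40 to 0.20 (-0.17 to -0.02 without 1 library). Both calls against Sham were kept in 9 of 9 fits without 1 library, with log2FC from -0.85 to -0.60 and from -0.95 to -0.70, the weakest of each without Sham replicate 3. Over the 13 other fits the adjusted p of Hmox1 ran from 7.51e-05 (DESeq2) to 0.170 in OVX vs Sham and from 3.40e-06 (DESeq2) to 0.171 in AS-IV vs Sham.

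**Figure D3:**
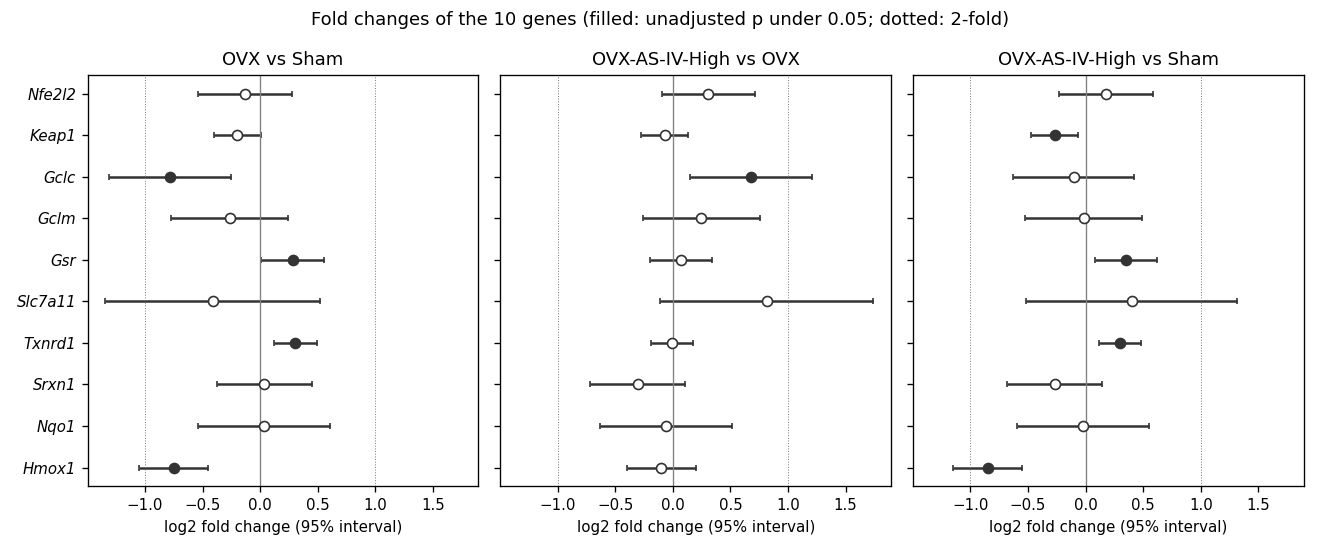
log2FC of each gene in the 3 comparisons with its 95% interval from edgeR's quasi-likelihood fit (n = 3 a group), filled where the unadjusted p was under 0.05, with dotted lines at a 2-fold change. Hmox1 (-0.75 and -0.85) and Txnrd1 (0.31 and 0.30) lie on opposite sides of 0 in the comparisons with Sham, and Gclc alone is filled in AS-IV vs OVX (0.68).

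Groups that did not overlap numbered 4 of the 10 genes in OVX vs Sham (Keap1, Gsr, Txnrd1, Hmox1), where 23.3% of all genes did not overlap. They numbered 1 of 10 in AS-IV vs OVX (Gclc), against 12.7%, and 4 of 10 in AS-IV vs Sham (Keap1, Txnrd1, Srxn1, Hmox1), against 19.9%. An exact two-sided permutation test of 3 against 3 libraries cannot give a p below 0.1. Groups that do not overlap give that value by construction, so it adds nothing for these genes. With a library of either group left out fewer libraries are compared, and more genes of all kinds do not overlap. Without Sham replicate 1 the number in OVX vs Sham was 6, with Gclc and Gclm added, beside 32.6% of all genes. Without AS-IV replicate 3 that in AS-IV vs Sham was 6, with Gsr and Slc7a11 added, beside 28.0% of all genes. Without Sham replicate 3 the number was 4 in OVX vs Sham beside 48.2% of all genes and 5 in AS-IV vs Sham beside 40.0%, and without AS-IV replicate 1 it was 4 in AS-IV vs Sham beside 37.7%. Leaving out 1 library gave 1 to 4 such genes in AS-IV vs OVX. The highest number, 4, came without AS-IV replicate 3 (Nfe2l2, Gclc, Gsr and Slc7a11), beside 28.1% of all genes. In the others 3 came without OVX replicate 2 (Gclc, Srxn1 and Hmox1, beside 20.2%), and 2 came without OVX replicate 1 (Gclc and Gclm, beside 24.5%), without OVX replicate 3 (Gclc and Slc7a11, beside 20.8%) and without AS-IV replicate 1 (Keap1 and Gclc, beside 24.9%).

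A wider list of 54 Nrf2 partners, repressors and targets was read beside the 10 genes. Of these, 52 had a row and 50 were tested, with Gpx2 and Gstm3 below the filter. At an unadjusted p under 0.05, 4 were higher and 5 lower in OVX vs Sham, 2 were higher and 0 lower in AS-IV vs OVX, and 6 were higher and 5 lower in AS-IV vs Sham. These are 18%, 4% and 22% of the list, beside 16.4%, 6.45% and 17.6% of all genes. The median log2FC of the list was -0.06, 0.03 and -0.01, beside -0.01, -0.02 and -0.01 over all genes. Under the 2-fold rule 0 were called in any comparison. With the log2FC over 0.58 the calls were Ggt1 in OVX vs Sham, 0 genes in AS-IV vs OVX and Ephx1 in AS-IV vs Sham.

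In OVX vs Sham 2 of the 5 lower genes, Ftl1 and Fech, handle iron or haem, and the other 5 iron and haem genes tested did not pass. Ftl1, the ferritin light chain that stores iron, stood at 1731, 1686 and 2080 CPM in Sham and 1413, 1384 and 1435 in OVX (log2FC -0.38 ± 0.12, adjusted p = 0.188), with no overlap. Fech, which inserts iron into protoporphyrin in the last step of haem synthesis, was lower by a log2FC of -0.47 ± 0.17, and here Sham replicate 1 (413 CPM) lay within the OVX range. Gpx4, which reduces lipid peroxides, stood at 281, 291 and 232 CPM in Sham and 206, 193 and 217 in OVX (-0.38 ± 0.11), again with no overlap. Mafg, a small Maf partner of Nrf2, was lower by -0.38 ± 0.15. In the fits without 1 library the calls of Ftl1 and Gpx4 were kept in 9 of 9, those of Fech and Mafg in 5 of 9 and that of Ggt1 in 3 of 9. The fifth lower gene, Ggt1, named after its values were seen, had 10.1 CPM in Sham replicate 1 and 2.83 to 4.81 in the other 5 Sham and OVX libraries.

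Of the higher genes of OVX vs Sham, Gstm1 and Mgst1 encode glutathione transferases, while Gsta1, Gsta4, Gstm2, Gstm4 and Gstp1 did not pass. Gstm1, a glutathione S-transferase, stood at 21.8, 22.9 and 28.3 CPM in Sham and 34.6, 36.3 and 35.2 in OVX (log2FC 0.54 ± 0.15, adjusted p = 0.166). Mgst1, a membrane-bound glutathione transferase, was higher by 0.39 ± 0.12. Idh1, the cytosolic NADP-dependent isocitrate dehydrogenase, was higher by 0.30 ± 0.13. Without 1 library the calls of Gstm1 and Mgst1 were kept in 9 of 9 fits and that of Idh1 in 4 of 9.

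In AS-IV vs OVX the calls of the wider list were Osgin1 and Slc40a1. Osgin1, a growth inhibitor induced by oxidative stress, stood at 12.0, 8.99 and 12.0 CPM in OVX and 17.9, 14.1 and 15.0 in AS-IV (log2FC 0.51 ± 0.18, adjusted p = 0.679). Slc40a1, which encodes ferroportin, the exporter of iron from cells, stood at 285, 239 and 262 CPM in OVX and 344, 305 and 285 in AS-IV (0.25 ± 0.11, adjusted p = 0.765), with its lowest treated library close to the highest OVX library. The call of Slc40a1 was lost in 5 of 9 fits without 1 library, with total counts only, with only the 2 groups and with the macrophage covariate, and that of Osgin1 in 2 of 9 fits without 1 library. With the replicate block and only these 2 groups the list held 6 calls in place of 2, beside 7.81% of all genes (Aldh3a1, Bach1, Gsta4, Me1, Osgin1 and Slc40a1). Leaving out 1 library gave 0 calls (without OVX replicate 2, beside 4.13% of all genes, or AS-IV replicate 1, beside 5.09%) to 4 (without Sham replicate 1, beside 6.91%). Aldh3a1, named after its values were seen, had 1017 counts in OVX replicate 2 and 50 to 185 in the other 8 libraries, and its log2FC of -1.98 ± 0.96 rested on that library.

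In AS-IV vs Sham, Mgst1 had the smallest p of the list, at 218, 185 and 166 CPM in Sham and 273, 283 and 264 in AS-IV (log2FC 0.53 ± 0.12, adjusted p = 0.107). Ptgr1, a reductase of reactive aldehydes and ketones (0.33 ± 0.12), and Gstm1 (0.39 ± 0.15) were also higher. Ephx1, the microsomal epoxide hydrolase, was lower by -0.84 ± 0.23, from 21.0, 26.0 and 25.7 CPM in Sham to 9.22, 15.6 and 15.7. Gpx4 (-0.35 ± 0.11), the efflux pump gene Abcc1 (-0.43 ± 0.14) and Ftl1 (-0.31 ± 0.12) were lower as well. Without 1 library the calls of Mgst1 and Ephx1 were kept in 9 of 9 fits, those of Gpx4 and Abcc1 in 8, that of Ptgr1 in 7 and those of Gstm1 and Ftl1 in 6. Idh1, Sqstm1 and Cul3 also passed, and their calls were kept in 6, 5 and 3 of 9. Without 1 library the list's count ran from 6 of the 50 (without Sham replicate 2, beside 11.2% of all genes) to 15 (without Sham replicate 3, beside 23.3%), with 7 without AS-IV replicate 2 (11.3%). In OVX vs Sham it ran from 6 (without OVX replicate 3, beside 10.5% of all genes) to 14 (without Sham replicate 3, beside 25.2%). Matches to TGACNNNGC lay in the windows of 12 of the 46 genes of the list that had one, or 26.1%, beside 13.1% of all genes.

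**Figure D4:**
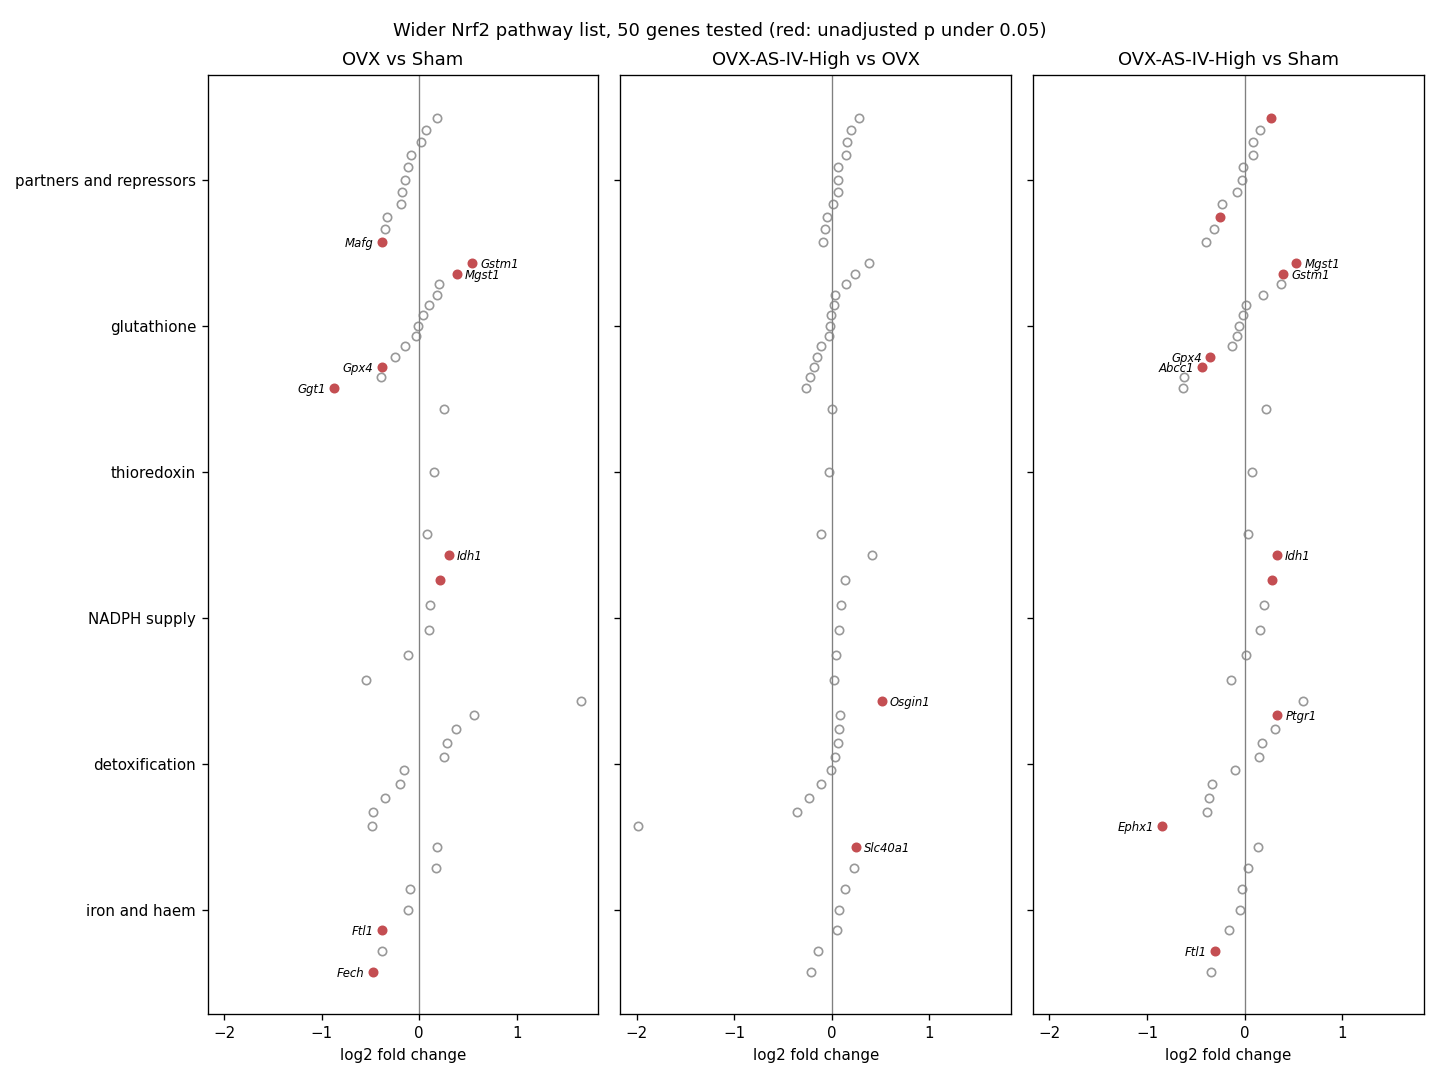
log2FC of the 50 tested genes of the wider list in the 3 comparisons, grouped by role, with red points where the unadjusted p was under 0.05 and names beside genes described in the text. Calls fall on both sides of 0 in the comparisons with Sham (4 higher and 5 lower, 6 higher and 5 lower), and 2 appear in AS-IV vs OVX.

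Whole bone holds marrow, bone cells and adhering tissue, and in such bulk samples fewer cells of a type and less RNA per cell cannot be told apart. Markers of 10 cell types were therefore summed per library. Counts of markers past the unadjusted threshold, given below, stand beside 16.4% of all genes in OVX vs Sham, 6.45% in AS-IV vs OVX and 17.6% in AS-IV vs Sham. Bone was plainly present: Bglap, which encodes osteocalcin and was the most abundant of 8 osteoblast and osteocyte markers, ran from 441 to 2018 FPKM, and Ctsk, the cathepsin of osteoclasts, from 195 to 929. Marrow was present too, with S100a8 of neutrophils at 6256 to 10767 FPKM and Hbb of red cells at 7480 to 21068. The list members at 0 were limited to Ltf, of the neutrophil list, in AS-IV replicate 1. Ltf was at most 0.177 FPKM in the other libraries.

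Macrophages are a known source of Hmox1, so their markers are given beside it. The 8 markers with a row, of which C1qa was the most abundant, summed to 291, 337 and 488 FPKM in Sham rats, 352, 394 and 423 in OVX rats, and 318, 345 and 369.7 in AS-IV rats. In OVX vs Sham 0 of the 8 passed the unadjusted threshold in either direction, with a median log2FC of 0.05. In AS-IV vs Sham 1 of 8 was lower, with a median of -0.14. The haemoglobin receptor Cd163, 1 of the 8, was lower in AS-IV vs OVX. With the summed macrophage level as a covariate, chosen after seeing the data, the log2FC of Hmox1 was -0.79 and -0.80 against Sham, and Gclm passed the unadjusted threshold in AS-IV vs OVX (0.42). Whether the share of macrophages had a part in the values of Hmox1 was not tested.

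Erythroid markers other than Hbb were the lowest in Sham replicate 1 and the highest in Sham replicate 3, the libraries with the lowest and the highest Gclc of the Sham group. This was not particular to erythroid markers. The macrophage sum was also lowest in Sham replicate 1 (291 FPKM) and highest in Sham replicate 3 (488 FPKM). Osteoblast and osteocyte, osteoclast and adipocyte sums rose from Sham replicate 1 to 3 too, while muscle and neutrophil sums fell. With Hbb, the most abundant erythroid marker, the erythroid sum was highest in AS-IV replicate 1 (22993 FPKM). Without it, the 6 others summed to 1706, 2328 and 2896 FPKM in Sham rats, 2441, 1868 and 2054 in OVX rats, and 1925, 2153 and 2497 in AS-IV rats. Of the 7 erythroid markers 0 passed in OVX vs Sham or in AS-IV vs OVX, and 1 was higher in AS-IV vs Sham. With this sum as a covariate, chosen after seeing the data, the log2FC of Gclc was -0.60 in OVX vs Sham and 0.62 in AS-IV vs OVX, and both kept their calls. In the same fit Keap1 passed the unadjusted threshold in OVX vs Sham (-0.21) and Nfe2l2 in AS-IV vs OVX (0.32).

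Skeletal muscle markers, which mark tissue left on the bone, differed most between libraries. The 6 with a row, led by Acta1, summed to 4451, 2937 and 763 FPKM in Sham rats, 1538, 923 and 769 in OVX rats, and 2255, 1000.0 and 269 in AS-IV rats. Replicate 1 held the most muscle in all 3 groups, as it held the most Nfe2l2. With this sum as a covariate, chosen after seeing the data, the log2FC of Nfe2l2 was 0.09 in OVX vs Sham, 0.34 in AS-IV vs OVX and 0.43 in AS-IV vs Sham, the last 2 past the unadjusted threshold, and Keap1 lost its call in AS-IV vs Sham (-0.21). With the same covariate Gclm passed the unadjusted threshold in OVX vs Sham (-0.42), and Gsr had a log2FC of 0.50 in AS-IV vs Sham (adjusted p = 0.0454 in edgeR). Of the 6 muscle markers 0 passed in any comparison, with a median log2FC of -1.15 in OVX vs Sham, 0.10 in AS-IV vs OVX and -1.18 in AS-IV vs Sham.

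Fat and B cell markers were higher in OVX than in Sham. In OVX vs Sham 5 of 6 adipocyte markers were higher, with a median log2FC of 1.23, and their sum, led by Fabp4, went from 340.4, 347 and 437 FPKM in Sham to 497, 669 and 673 in OVX, and was 368, 614 and 602 in AS-IV. All 5 B lineage markers were higher in OVX vs Sham (median 0.68), with sums led by Cd79a of 364, 354 and 474 in Sham rats, 654, 682 and 642 in OVX rats, and 413, 469 and 623 in AS-IV rats, where 3 of 5 were lower than in OVX. Against Sham, 4 of 6 adipocyte markers were higher in AS-IV, with a median of 1.13, and 1 of 5 B lineage markers was higher. Neutrophil markers gave 2 of 6 higher in OVX vs Sham and 3 of 6 higher in AS-IV vs Sham. Of all genes 16.4% and 17.6% passed in these comparisons, in either direction. The part of fat, B lineage and neutrophil cells in the differences of Gclc, Gsr, Txnrd1 and Hmox1 was not tested.

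Osteoblast and osteocyte markers had 1 of 8 higher in OVX vs Sham (Bglap) and a different 1 of 8 in AS-IV vs Sham (Phex), and osteoclast markers 0 of 7 in OVX vs Sham and 1 of 7 higher in AS-IV vs Sham. Chondrocyte markers, led by Col2a1, had 1 of 5 lower in OVX vs Sham (Sox9) and a different 1 of 5 in AS-IV vs Sham (Matn1). Endothelial markers, led by Pecam1, had 1 of 5 lower in OVX vs Sham, 1 of 5 lower in AS-IV vs OVX and 4 of 5 lower in AS-IV vs Sham. Osteoblast and osteocyte, osteoclast, neutrophil, erythroid, adipocyte, muscle and chondrocyte markers gave 0 calls in AS-IV vs OVX. With 16.4% and 17.6% of all genes past the threshold in OVX vs Sham and AS-IV vs Sham, 1 marker of a list is near that share.

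**Figure D5:**
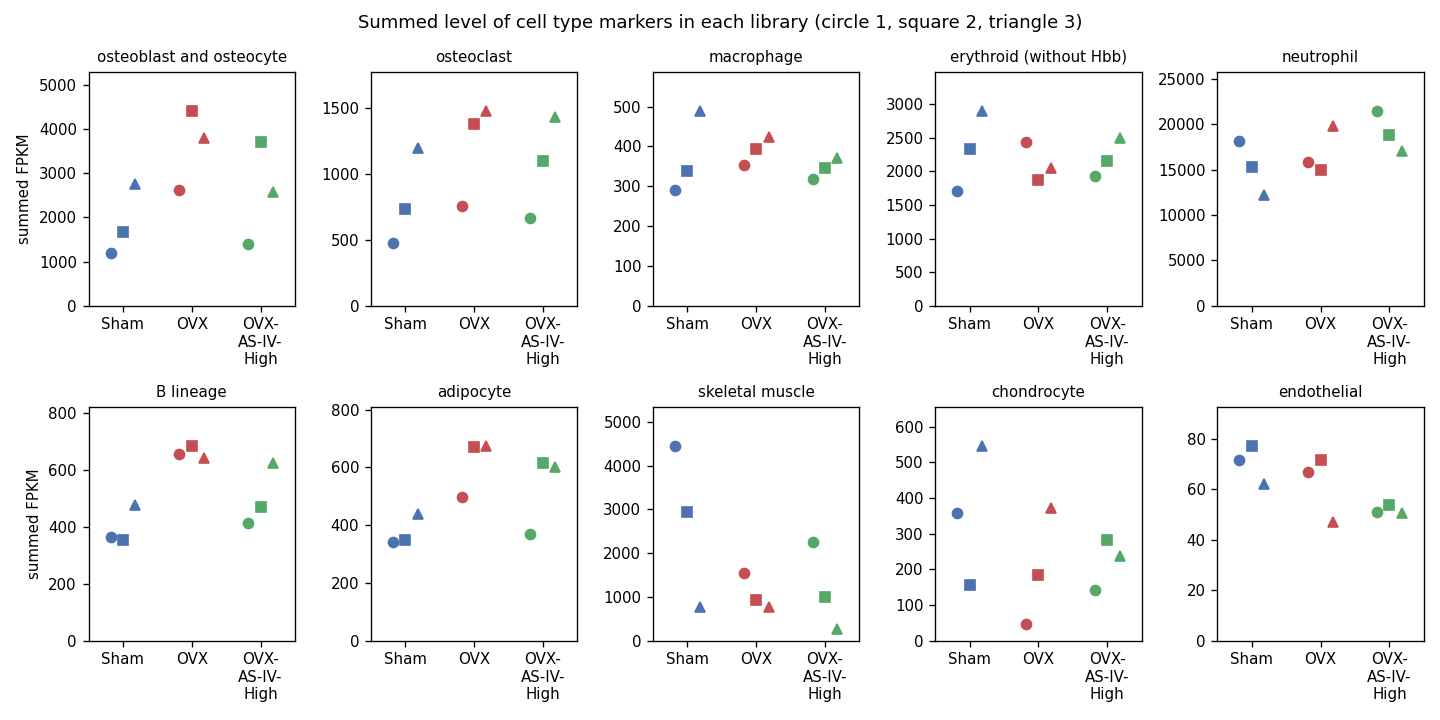
Summed FPKM of the markers of 10 cell types in each library (circle, square and triangle for replicates 1, 2 and 3), with Hbb left out of the erythroid sum. Muscle markers range from 269 to 4451 FPKM over the 9 libraries, and adipocyte and B lineage sums are higher in all OVX libraries than in any Sham library.

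The genes whose log2 CPM was most like that of the main members over the 9 libraries were ranked by Pearson's r among 14469 other genes with a mean of at least 1 CPM, as a description. Closest to Nfe2l2 was Ppp3ca, a catalytic subunit of calcineurin (r = 0.98, Spearman's rho = 1), followed by Gng10 and LOC102549410 (0.98 each). Closest to Keap1 were Bckdk (0.99), Pias4 (0.98) and Pdgfb (0.97). Closest to Nqo1 were Padi2 (0.99), LOC500959 (0.98) and LOC108352942 (0.93), and closest to Hmox1 were Mrm3 (0.96), Trir (0.95) and Zdhhc7 (0.95). Ranked by Spearman's rho, the 3 closest to Keap1 and the 3 closest to Hmox1 were all other genes. Those of Nfe2l2 and Nqo1 were shared in part. Trir and Zdhhc7 each had a rho of 0.77 with Hmox1. Padi2 shared with Nqo1 its lowest library, Sham replicate 3, at 20.4 CPM against 29.4 to 45.8 in the others. Values over 0.9 were reached by 108 genes for Nfe2l2, 181 for Keap1, 13 for Nqo1 and 38 for Hmox1, and the 9 points share the differences in muscle and marrow given above.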

How the data were processed

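Poly(A) RNA from bone of 9 rats, 3 per group, was sequenced. The authors aligned the reads with TopHat and Bowtie2 to the rat build mRatBN7.2, per the submitters' processing notes, after quality control with NGS QC Toolkit 2.3.3, and made the deposited counts and FPKM with eXpress. The strand setting of counting is not given in the sources used here. For each of the 10 genes, counts divided by FPKM and the library total gave the same length in all 9 libraries. The genes and lists were chosen with earlier results of these data known.

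Counts were tested in R 4.3.3 with edgeR 4.0.16 (TMM, filterByExpr with a minimum count of 10, quasi-likelihood F test, 3 contrasts, Benjamini-Hochberg over 16874 genes). Standard errors were the log2FC divided by the root of F. log2 CPM used a prior count of 2. Alternatives were DESeq2 1.42.0, RLE or total-count scaling, no filter, limma 3.58.1 on log2(FPKM + 1) or log2(FPKM + 0.1), fits of only the 2 groups compared, the replicate number as a block, each library left out, marker levels as covariates and a log2FC threshold of 0.58. Scripts were tested on simulated data. Promoters were searched and figures drawn with Python 3.11.15, pandas 2.3.3 and matplotlib 3.10.9. Total counts per library were 34874880 to 37298250.

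Named genes were the 10 genes, the 4 of the wider list with the smallest unadjusted p in each direction of each comparison (of which 1 gene is not reported here), the 3 genes most like Nfe2l2, Keap1, Nqo1 and Hmox1, and the most abundant marker of each list.

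Whether replicate numbers pair libraries was checked by correlating deviations from group means across genes. Same-numbered OVX and AS-IV libraries gave 0.31, 0.16 and 0.13, all over 0.1, although different-numbered ones ran from -0.28 to 0.18. The main fit used the group only and paired no libraries, and the replicate number was a block in alternative fits only. These correlations come from the same data and do not settle whether the libraries are paired. No source names a shared litter or day. Same-numbered OVX and Sham libraries gave 0.20, -0.16 and 0.25, and AS-IV and Sham libraries 0.31, -0.16 and 0.44.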

Additional observations from a re-analysis of the deposited data

How the results depend on the processing

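With 3 animals a group and 0 genes called after adjustment in the edgeR fit of all 9 libraries by group, the differences described rest on unadjusted p. Genes were called after adjustment in other edgeR fits. In OVX vs Sham and AS-IV vs Sham these were 21 and 58 with the replicate block over all 9 libraries, 1 and 195 with the muscle, 132 and 0 with the erythroid and 91 and 835 with the macrophage covariate. They were 33 in AS-IV vs Sham with the block and only the 2 groups and 5 with no filter. These fits called 0 in AS-IV vs OVX. Without 1 library the 3 comparisons had 0, 29 and 141 (without AS-IV replicate 3), 21, 0 and 5 (Sham replicate 3), 2, 2 and 5 (OVX replicate 3), 0, 1 and 12 (AS-IV replicate 1) and 0, 1 and 0 (OVX replicate 1). In 9 of 9 fits without 1 library the calls of Hmox1 and Txnrd1 against Sham were kept, as was that of Gclc in OVX vs Sham. Over all alternatives, 205, 199 and 188 of 220 log2FC of the 10 genes kept direction and side of the unadjusted threshold in OVX vs Sham, AS-IV vs OVX and AS-IV vs Sham. Low counts limit Slc7a11. The cause was not tested for any change below.

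Members past the 2-fold rule were 0 to 1 without 1 library in OVX vs Sham (1 without Sham replicate 1, Gclc) and 0 to 1 in AS-IV vs OVX (1, Slc7a11). With an absolute log2FC over 0.58 they were 2, 1 and 1 in place of 0, 0 and 0, a rule added after seeing the data. Members with an unadjusted p under 0.05 in AS-IV vs OVX were 1 to 2 without 1 library, and 2 in place of 1 with the replicate block over all 9 libraries or with the muscle, erythroid or macrophage covariate. With the replicate block and only the 2 groups compared it stayed 1. Members whose groups do not overlap in that comparison were 1 to 4 without 1 library. The wider list's count in OVX vs Sham (9, beside 16.4% of all genes) was 15 with the erythroid covariate (24.1%) and 6 to 14 without 1 library. In AS-IV vs OVX (2, beside 6.45% of all genes) it was 1 with total counts only (6.51%) and 4 with only the 2 groups (7.02%). With the replicate block and only the 2 groups it was 6 (7.81%). It was 5 with the muscle (11.7%) or erythroid (8.98%) covariate, 6 with the macrophage covariate (8.37%) and 0 to 4 without 1 library. In AS-IV vs Sham (11, beside 17.6% of all genes) it was 17 with the macrophage covariate (26.7%) and 6 to 15 without 1 library. The block changed no other call of the 10 genes. Genes past the 2-fold rule numbered 525, 140 and 531 in the 3 comparisons, 74, 13 and 79 with limma on log2(FPKM + 1) and 791, 274 and 769 with no filter. The shorter motif gave 7 members in place of 3.

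Reversed signs concerned log2FC that had not passed. In OVX vs Sham, Nfe2l2 was 0.091 with the muscle covariate and -0.24 to 0.030 without 1 library, Gclm -0.48 to 0.0098, Nqo1 -0.22 to 0.20 and Srxn1 -0.18 to 0.20 without 1 library. In AS-IV vs OVX, Txnrd1 was 0.0049 with DESeq2, 0.0048 with RLE, 0.0067 with no filter, 0.0089 with the macrophage covariate and -0.037 to 0.040 without 1 library. Nqo1 was 0.014 with the muscle covariate and -0.18 to 0.080 without 1 library, and Gsr -0.0058 with the macrophage covariate and -0.010 to 0.17 without 1 library. In AS-IV vs Sham, Gclm was 0.016 with limma on log2(FPKM + 1) with or without the filter, 0.017 on log2(FPKM + 0.1), 0.0037 with only the 2 groups, 0.0052 with the block over all 9, 0.043 with the block and only the 2 groups, 0.086 and 0.11 with the erythroid and macrophage covariates, and -0.22 to 0.26 without 1 library. Nqo1 was 0.0099 with limma on log2(FPKM + 1) with or without the filter, 0.017 on log2(FPKM + 0.1), 0.041 with the block and only the 2 groups, 0.33 with the muscle covariate and -0.27 to 0.14 without 1 library. Gclc was 0.022 and 0.037 with the erythroid and macrophage covariates and -0.35 to 0.17 without 1 library, and Nfe2l2 -0.011 to 0.35. The covariates were added after seeing the data.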
